A study of Homo sapiens with 38 samples.

Results

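The comparison described here is shp130 against vector in IMR90 cells made senescent by ras, chosen by the array titles. It rests on 4 of the 38 arrays of the series, namely the 2 titled shp130 and the 2 titled MLP among the senescent cells of experiment 1. IMR90 is a strain of human lung fibroblasts, and all arrays come from it. The shp130 cells carried 1 hairpin against p130, the product of RBL2, and the vector cells carried the empty MLP vector. Both groups were in ras-induced senescence, so their difference leaves out what ras and senescence did to both. Other groups of experiment 1 used below are senescent cells with a hairpin against RB (shRB) or p107 (shp107), and shp130 and vector cells that were growing in medium with 10% FBS, quiescent in 0.1% FBS or quiescent at confluence, with 2 arrays each. Experiment 2 adds 2 arrays each of senescent and growing vector cells. The labels do not say whether the cells in these other states carried ras, how p130 loss was checked, or whether A and B arrays came from separate cultures, so the p-values reflect the spread among these arrays alone, and that spread may be technical.

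RB, p107 and p130 are the pocket proteins, which bind E2F transcription factors and hold down genes of the cell cycle. p130 is the pocket protein that builds up in resting cells, where it joins E2F4 or E2F5, a DP partner and the MuvB core in the DREAM complex, a repressor of genes for DNA replication and mitosis. Oncogenic ras drives fibroblasts into senescence, a lasting arrest with raised CDK inhibitors, altered chromatin and secretion of inflammatory factors and proteases. RB is known for the repression of replication genes in such cells.

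Values are log2 expression per probe set after GCRMA, 1 probe set per gene. A log2 value of 5 was taken as the floor of detection, and limma was run on the 8511 genes that exceeded it on 2 or more of the 32 experiment 1 arrays. Array medians were 3.38 and 3.39 in shp130 cells, against 3.32 and 3.32 in vector cells, so both shp130 arrays lay slightly higher. In each group the replicates correlated at r = 0.992 across genes, which are not independent. Among 14 fibroblast markers, 13 lay above the floor on these arrays and PDGFRB did not. Their summed log2 values were 124.48 and 124.35 in shp130 cells, against 124.69 and 124.54 in vector cells. None of 11 epithelial markers and none of 8 blood markers exceeded the floor on any of the 4 arrays. The epithelial markers summed to 35.20 and 34.93 in shp130 cells, against 33.88 and 34.21 in vector cells. Sums of the blood markers were 25.57 and 25.05 in shp130 cells, against 24.46 and 24.35 in vector cells. The cause of these slightly higher background values with shp130 was not tested. Of 11 endothelial markers TEK, CLDN5 and ROBO4 did, and the defining markers PECAM1, CDH5 and VWF did not. Their sums were 42.78 and 42.41 in shp130 cells, against 41.62 and 40.83 in vector cells.

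The target of the hairpin was lower in the cells labelled shp130. RBL2 stood at 4.75 and 4.64 in shp130 cells, against 7.68 and 7.47 in vector cells. The 2 groups lay far apart relative to the gap between replicates, and RBL2 fell by 2.88 on the log2 scale (SE 0.26, n = 2 against 2, limma adjusted p = 9.79e-07), a 7.38-fold difference. In such bulk RNA, fewer cells with a transcript and less of it per cell cannot be told apart. The second RBL2 probe set was near background in both groups, with 3.28 and 3.18 in shp130 cells and 3.36 and 3.36 in vector cells. RB1, which encodes RB, had 9.08 and 9.04 in shp130 cells, against 9.14 and 9.63 in vector cells, and was not called (−0.32, SE 0.36). RBL1, which encodes p107, was below the floor in both groups, with 3.47 and 3.41 in shp130 cells and 3.44 and 3.24 in vector cells. RBL2 was the sole called gene among the 9 tested pocket protein, E2F and DP genes. E2F7, a repressor of E2F targets, had 11.12 and 11.46 in shp130 cells, against 10.65 and 10.78 in vector cells, a difference of 0.58 (SE 0.35) that missed the threshold. E2F3, E2F5, E2F6, TFDP1 and TFDP2 differed by between −0.50 and 0.13 on the probe set used for each, and none was called. Other tested probe sets of these genes differed by −0.28 to 0.99 and were not called, with 0.99 for E2F3 and 0.62 for TFDP2.

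Across all genes, 142 of the 8511 tested (1.67%) were called at an adjusted p below 0.05. Of these 66 were higher (0.775%) and 76 lower (0.893%) with shp130, and 118 of the 142 differed at least 2-fold. The median change over all tested genes was −0.01. At an unadjusted p below 0.05 there were 1016 of the 8511, higher or lower. That share is the background for the unadjusted counts of the lists below. Every called gene separated the 2 groups of arrays without overlap, as did 48.9% of all tested genes, so non-overlap alone says little with 2 arrays a group. The number of calls depended on each array. It was 54 without shp130 replicate 1, 52 without shp130 replicate 2, 71 without vector replicate 1 and 46 without vector replicate 2. With the spread taken from the 8 senescent arrays alone 4 genes were called, and from the 4 arrays alone 14. Of the 142 genes, 17 were called whichever of the 4 arrays was left out, 12 of them higher and 5 lower with shp130, and 53 lost their call whichever was left out.

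**Figure D1:**
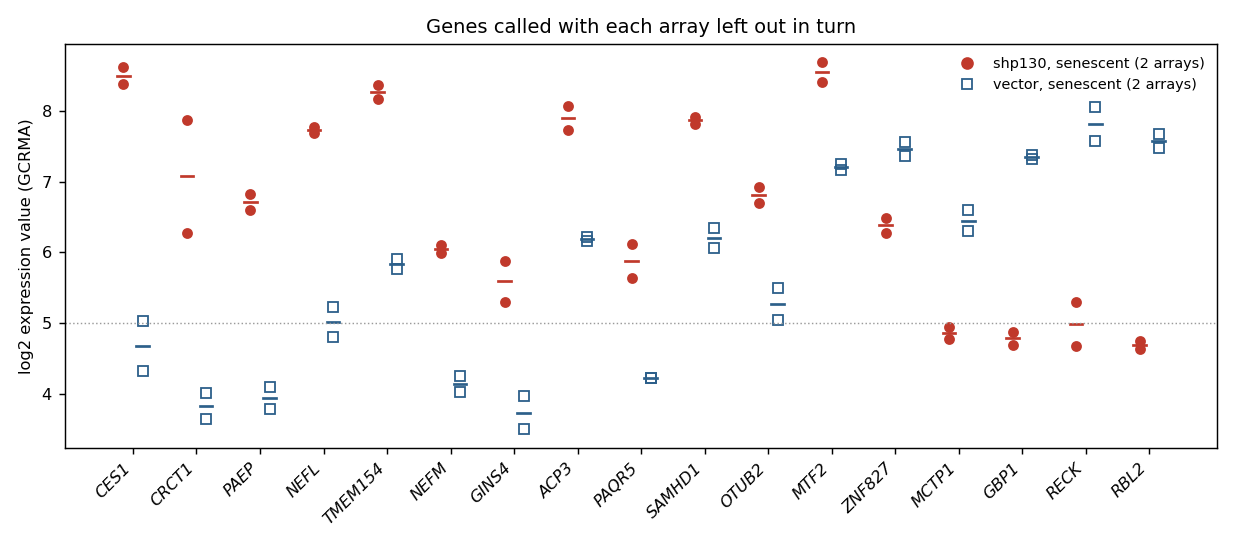
Log2 expression value (vertical axis) of the 17 genes that were called with any 1 array left out, on the 2 shp130 arrays (filled circles) and the 2 vector arrays (open squares) of senescent cells, with group means as short lines and the floor of 5 dotted. The groups do not overlap for any of them, and CES1, at 8.38 and 8.62 with shp130 against 5.03 and 4.33 with vector, shows the widest gap.

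CES1, a carboxylesterase best known from liver and macrophages, showed the largest measured rise. It had 8.38 and 8.62 in shp130 cells, against 5.03 and 4.33 in vector cells, a log2 change of 3.82 (SE 0.24, adjusted p = 3.14e-09). The groups were separated by more than 3 log2 units, and the vector value lay around the floor. For CES1, HINT3, CRCT1, PAEP, NEFM, SMOC1, PI3, GINS4 and TRIP13, among others, the vector mean was below the floor. The sizes and the order of these rises are therefore uncertain. NEFL and NEFM encode the light and medium neurofilament subunits, intermediate filament proteins of neurons. NEFL had 7.68 and 7.77 in shp130 cells, against 5.22 and 4.80 in vector cells, a change of 2.71 (SE 0.22, adjusted p = 2.40e-07). NEFM had 6.10 and 5.99 in shp130 cells, against 4.02 and 4.26 in vector cells, a change of 1.91 (SE 0.27, adjusted p = 0.000392). For both genes the vector arrays lay at or below the floor of 5 or close above it. L1CAM, a neural cell adhesion molecule, rose by 1.64 (SE 0.30, adjusted p = 0.00595), but its call was lost without vector replicate 2 (0.0825) or shp130 replicate 2 (0.114). These 3 were the called members of the 9 tested genes, of 20 on the array, on the list of neuronal and vesicle genes. Over all genes, 0.775% were called higher. The median change of that list was 0.04, and it has no called member that fell. However, NEFL and NEFM lay around or under the floor in vector cells, where a fall could hardly be seen. The 3 calls are therefore no test of the list.

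PAEP, which encodes glycodelin, a secreted protein of the endometrium, was below the floor with vector and above it with shp130. It had 6.82 and 6.60 in shp130 cells, against 3.79 and 4.10 in vector cells, a change of 2.77 (SE 0.39, adjusted p = 0.000404). TMEM154, a membrane protein, had 8.37 and 8.17 in shp130 cells, against 5.90 and 5.76 in vector cells, a change of 2.43 (SE 0.39, adjusted p = 0.00163). In each case the replicates lay within 0.4 of one another while the groups were more than 2 apart. Further genes that were called with any array left out were ACP3, PAQR5, SAMHD1, OTUB2 and MTF2, which are named after their values were seen. SAMHD1, the enzyme that degrades deoxynucleotides, had 7.82 and 7.91 in shp130 cells, against 6.07 and 6.35 in vector cells, a change of 1.66 (SE 0.25). The other tested SAMHD1 probe sets differed by 0.20 and 1.17 and were not called. MTF2, a Polycomb-like partner of the histone methyltransferase complex PRC2, had 8.69 and 8.42 in shp130 cells, against 7.26 and 7.16 in vector cells, a change of 1.34 (SE 0.17). The other tested MTF2 probe sets differed by −0.12 to 1.07 and were not called, and neither was the mean over its probe sets. ACP3, a phosphatase known from prostate, differed by 1.71, PAQR5, a membrane progestin receptor, by 1.66, and OTUB2, a deubiquitinase, by 1.54.

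CRCT1 belongs to the epidermal differentiation complex, a cluster of genes on chromosome 1 whose products build the outer layer of skin. It had 7.88 and 6.28 in shp130 cells, against 4.02 and 3.64 in vector cells, a change of 3.25 (SE 0.30, adjusted p = 9.79e-07), which was 2.45 without shp130 replicate 1 and 4.05 without shp130 replicate 2. The 2 shp130 arrays differed by more than 1 log2 unit and still lay above both vector arrays. Because CRCT1 was among the largest rises, the genes from S100A10 to S100A1 were then looked up in the RefSeq gene order, a choice made after the values were seen. The array measures 45 of them, of which 12 were tested and 33 stayed at or below the floor on all 4 arrays. LINC00302 rose by 1.86 (SE 0.32, adjusted p = 0.00331), and without shp130 replicate 1 its change was 1.13 and its call was lost (0.0821). IVL, the envelope protein involucrin, rose by 1.06 (SE 0.22, adjusted p = 0.0119) and was still called without shp130 replicate 1 (0.0427) but not without each of the other arrays (0.0549 to 0.159). LCE3D, a late envelope protein gene, had 10.74 and 10.84 in shp130 cells, against 9.51 and 7.63 in vector cells. The vector arrays lay far apart, and the difference of 2.22 (SE 0.68) was not called (adjusted p = 0.111). LCE2B differed by 1.17 and was not called either (adjusted p = 0.0958). No gene of this stretch was called lower. However, the stretch was chosen for a rise, and most of its genes were not tested. CRCT1, LINC00302 and IVL lay under the floor in vector cells, where a fall could hardly be seen. The 3 calls among 12 tested genes, against 0.775% of all genes called higher, are therefore no test of the stretch. Of 141 called genes among 19735 with a known place, 3 pairs were direct neighbours among the genes on the array. They were NEFM with NEFL, GBP3 with GBP1, and SNX18 with ESM1. The first and the second of these pairs moved in 1 direction and the last in opposite directions. Whether 3 pairs exceed what gene order alone would give was not tested.

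The other large rises were less steady. CXCR4, the receptor for the chemokine CXCL12, had 10.76 and 9.92 in shp130 cells, against 8.59 and 7.16 in vector cells, a change of 2.46 (SE 0.39, adjusted p = 0.00169), and lost its call without vector replicate 2 (0.057). CYP26B1, which clears retinoic acid, rose by 2.30, ST3GAL6, a sialyltransferase, by 2.13, and PI3, the elastase inhibitor elafin, by 2.13. All of these lost their calls without vector replicate 2 (0.126, 0.126 and 0.114) or shp130 replicate 1 (0.0733, 0.0985 and 0.0838). HINT3, a histidine triad hydrolase, had 7.37 and 6.94 in shp130 cells, against 3.50 and 4.17 in vector cells. Its change of 3.32 carried a large error (SE 0.69, adjusted p = 0.0126), and no array could be left out without losing the call (0.057 to 0.133). SMOC1, a secreted calcium-binding protein, rose by 2.45 and likewise lost its call without any 1 array (0.0631 to 0.173). A second SMOC1 probe set, below the floor on these arrays, differed by 0.19 and was not called, and neither was the mean over its probe sets. MALAT1, an abundant nuclear long non-coding RNA, had 11.84 and 11.60 in shp130 cells, against 9.69 and 8.85 in vector cells, a change of 2.45 (SE 0.52, adjusted p = 0.0139). It kept its call without vector replicate 1 (0.0313) and lost it without each of the other arrays (0.0794 to 0.192), and its other probe sets ranged from −0.01 to 3.55. APCDD1L rose by 1.93 and lost its call without vector replicate 1 (0.0868) or shp130 replicate 2 (0.178). TMEFF2 rose by 2.14 and kept its call without shp130 replicate 1 (0.020), but not without the others (0.117 to 0.400).

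**Figure D2:**
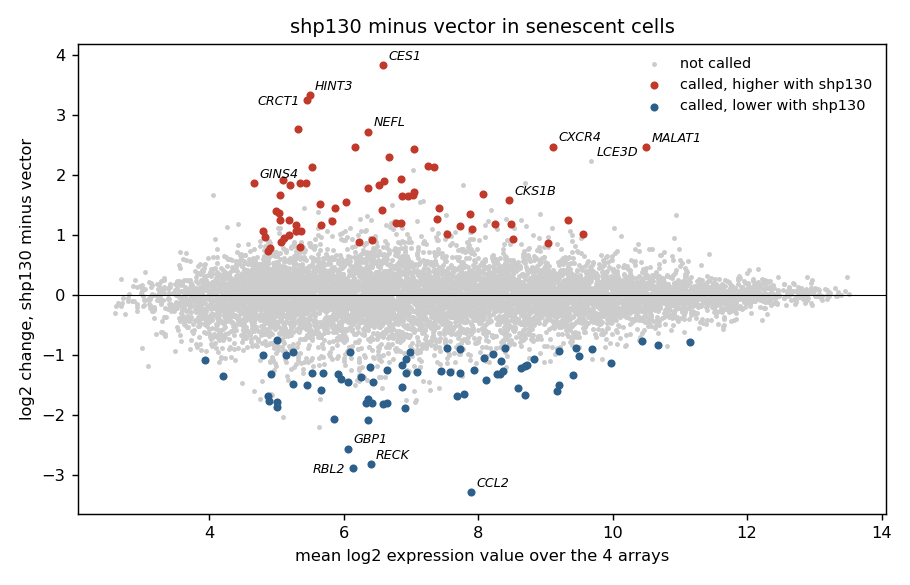
Log2 change, shp130 minus vector in senescent cells (vertical axis), against the mean log2 value over the 4 arrays (horizontal axis) for the 8511 tested genes, with the 66 called higher in red and the 76 called lower in blue. CES1 is the highest point at 3.82, CCL2 and RBL2 are the lowest at −3.29 and −2.88, and LCE3D, at 2.22, was not called.

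CCL2, a chemokine that attracts monocytes, showed the largest fall. It had 6.72 and 5.76 in shp130 cells, against 10.73 and 8.34 in vector cells. The vector arrays were more than 2 log2 units apart, although both lay above both shp130 arrays. The change of −3.29 (SE 0.62, adjusted p = 0.00672) was −4.49 without vector replicate 2 and −2.10 without vector replicate 1. The call was lost without vector replicate 1 (0.150) or shp130 replicate 2 (0.116). GBP1, an interferon-inducible GTPase, had 4.69 and 4.88 in shp130 cells, against 7.32 and 7.38 in vector cells, a change of −2.57 (SE 0.25, adjusted p = 2.75e-06). The replicates of GBP1 lay within 0.2 of one another, and the gene went below the floor with shp130. The other tested GBP1 probe sets differed by −0.23 and −0.43 and were not called, and neither was the mean over its probe sets. Its neighbour GBP3, named after its values were seen, fell by 1.49 (SE 0.34, adjusted p = 0.0275) and lost its call without any 1 array (0.101 to 0.181). RECK, a membrane-anchored inhibitor of matrix metalloproteinases, had 5.30 and 4.68 in shp130 cells, against 7.57 and 8.05 in vector cells, a change of −2.82 (SE 0.34, adjusted p = 5.77e-05). Its other probe sets differed by 0.11 to 0.32, the other way, and the mean over all RECK probe sets was not called.

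MCTP1, a calcium-binding membrane protein, and ZNF827, a zinc finger protein, are named after their values were seen because no left-out array changed their calls. MCTP1 had 4.95 and 4.78 in shp130 cells, against 6.60 and 6.30 in vector cells, a change of −1.58 (SE 0.19, adjusted p = 6.89e-05). ZNF827 had 6.49 and 6.27 in shp130 cells, against 7.36 and 7.57 in vector cells, a change of −1.08 (SE 0.18, adjusted p = 0.00192). The other tested ZNF827 probe sets differed by −0.03 to 0.31 and were not called, and neither was the mean over its probe sets. The remaining large falls were less steady. ITGB8, an integrin that activates latent TGF-beta, NCOA2, a nuclear receptor coactivator, DPYD, which breaks down pyrimidines, ATP10D, a phospholipid flippase, MKLN1, PRKAR2B, a regulatory subunit of protein kinase A, and ANGPT1, the vessel factor angiopoietin 1, fell by 1.77 to 2.09. Each of these lost its call whichever array was left out, with adjusted p between 0.057 and 0.390. FCHO2, which starts clathrin pits, fell by 1.89 and CPED1 by 1.82, and both lost their calls without vector replicate 2 (0.131 and 0.0827) or shp130 replicate 1 (0.0715 and 0.0904). LINC00622 fell by 1.81 and lost its call without vector replicate 2 (0.0538) or shp130 replicate 2 (0.0656). TNFAIP8 fell by 1.73 and lost its call without vector replicate 1 (0.0918) or shp130 replicate 2 (0.129).

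Genes of the DNA replication machinery, the classical E2F targets, contained 4 of the rises. Of 45 tested members, 4 were called higher and none lower, against 0.775% and 0.893% of all genes, and their median change was 0.17, against −0.01 over all genes. At an unadjusted p below 0.05, 12 were higher and 1, MCM2, was lower, against 1016 of 8511 genes in either direction. GINS4, a subunit of the GINS complex in the replicative helicase, had 5.88 and 5.31 in shp130 cells, against 3.50 and 3.97 in vector cells, a change of 1.86 (SE 0.30, adjusted p = 0.00186), called with any array left out. ORC6, a subunit of the origin recognition complex, had 8.29 and 7.98 in shp130 cells, against 6.33 and 7.07 in vector cells, a change of 1.44 (SE 0.36, adjusted p = 0.0466). MCM4, a subunit of the helicase ring, had 8.0 and 8.02 in shp130 cells, against 6.63 and 6.88 in vector cells, a change of 1.26 (SE 0.23, adjusted p = 0.00657). RPA1, which coats single-stranded DNA, had 9.88 and 10.02 in shp130 cells, against 8.47 and 8.95 in vector cells, a change of 1.24 (SE 0.26, adjusted p = 0.0119). In each case both shp130 arrays lay above both vector arrays. ORC6 lost its call without any 1 array (0.0668 to 0.372), and MCM4 and RPA1 kept theirs only without vector replicate 2 (0.0323 and 0.0291; 0.052 to 0.170 without the others). The number of called replication genes was 1 without vector replicate 1 or either shp130 array, and 4 without vector replicate 2. With the spread of the 8 senescent arrays or of the 4 arrays alone, 0 replication genes were called. With a floor of 6 there were 2, and with the mean of all probe sets 1, with MCM4 and RPA1 not called. Quantile normalization kept 4. ORC6 was not called with centring, with no filter or with a floor of 6. The other tested MCM4 probe sets, near or below the floor, differed by 0.32 and 0.02, and a second RPA1 probe set by 1.03, and none of them was called. Other members did not show the same size of difference, such as PCNA, the sliding clamp, with 9.86 and 10.07 in shp130 cells, against 9.95 and 10.37 in vector cells, and TYMS, which makes thymidylate, with a difference of 0.52 (SE 0.32).

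Genes of mitosis, which DREAM represses through the CHR element, gave no calls. None of the 51 tested members was called by limma, and the median change was 0.12. At an unadjusted p below 0.05, 7 were higher and 0 lower. Over all genes 1016 of 8511 passed that threshold in either direction. The share of all genes that were higher alone was not counted, so the 7 higher members cannot be set against it. The median level of the list was 4.24 and 4.47 on the shp130 arrays, against 4.18 and 4.37 on the vector arrays of senescent cells, and 7.28 and 7.83 on those of growing vector cells. TOP2A, a topoisomerase of dividing cells, had 5.08 and 4.51 in shp130 cells, against 4.71 and 4.85 in vector cells. FOXM1, a driver of mitotic genes, was below the floor in both groups, with 3.24 and 3.12 in shp130 cells and 3.37 and 3.18 in vector cells. The median of the list thus lay under the floor in the senescent cells with either construct. CCNB1, the mitotic cyclin B1, had 7.46 and 7.03 in shp130 cells, against 6.12 and 6.62 in vector cells, a difference of 0.88 (SE 0.60) that was not called (adjusted p = 0.663). CKS1B, a small subunit of cyclin-dependent kinases, was the called member among 10 tested G1 cyclin and kinase genes, against 0.775% of all genes called higher. It had 9.29 and 9.20 in shp130 cells, against 7.85 and 7.50 in vector cells, a change of 1.58 (SE 0.35, adjusted p = 0.0216), and lost its call without any 1 array (0.0629 to 0.194).

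Some called genes outside these lists are known from chromosome segregation or DNA repair. They were picked after their values were seen, with no list or test behind them, and they moved in both directions. TRIP13, an ATPase of the spindle checkpoint, had 5.90 and 6.32 in shp130 cells, against 3.98 and 4.60 in vector cells, a change of 1.82 (SE 0.44, adjusted p = 0.034). ZWILCH, a kinetochore protein, had 8.99 and 8.83 in shp130 cells, against 7.18 and 7.27 in vector cells, a change of 1.68 (SE 0.30, adjusted p = 0.00553). OIP5, which helps to load the centromeric histone, had 5.48 and 5.15 in shp130 cells, against 4.30 and 4.41 in vector cells, a change of 0.96 (SE 0.21, adjusted p = 0.0212). All 3 separated the groups, and ZWILCH had the closest replicates. TRIP13 and OIP5 lost their calls without any 1 array (0.0827 to 0.268 and 0.0535 to 0.235), and ZWILCH lost its call without shp130 replicate 1 (0.0575). The repair genes PARP2, XRCC1, DCLRE1C and RAD1 rose by 0.87 to 1.51, and each lost its call without at least 3 of the 4 arrays (0.062 to 0.377). Other tested probe sets of PARP2, DCLRE1C and RAD1 differed by −0.54 to 0.93 and were not called. DCLRE1C and RAD1 lost their calls with the mean over their probe sets, and DCLRE1C, RAD1 and XRCC1 with arrays centred on their medians. Among the genes that fell, NAA50, an acetyltransferase needed for sister chromatid cohesion, had 10.63 and 10.90 in shp130 cells, against 11.41 and 11.69 in vector cells, a change of −0.78 (SE 0.18, adjusted p = 0.0286). EXD2, a nuclease of DNA end resection, fell by 0.75 (adjusted p = 0.0232), and USP44, a deubiquitinase of the spindle checkpoint, by 1.09 (adjusted p = 0.0439) with all 4 arrays below the floor. NAA50 and EXD2 lost their calls without any 1 array, and USP44 without each but shp130 replicate 1.

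The promoters of CKS1B, ORC6, TRIP13 and OIP5 are shown because these 4 genes rose and belong to functions that E2F or DREAM are known to control. Each is the RefSeq window (GRCh38.p14) of 300 bases, 250 before and 50 after the start of the gene, printed 5′ to 3′ on the strand of the gene. Capitals mark matches, on either strand, to an E2F word (TTTCCCGC, TTTCGCGC, TTTGCCGC or TTTGGCGC) or to the CHR word TTTGAA, and none of the E2F words contains the CHR word. The windows lie at chr1:154974431-154974730 on the plus strand (CKS1B), chr15:41332542-41332841 on the minus strand (OIP5), chr16:46689409-46689708 on the plus strand (ORC6) and chr5:892634-892933 on the plus strand (TRIP13).
CKS1B: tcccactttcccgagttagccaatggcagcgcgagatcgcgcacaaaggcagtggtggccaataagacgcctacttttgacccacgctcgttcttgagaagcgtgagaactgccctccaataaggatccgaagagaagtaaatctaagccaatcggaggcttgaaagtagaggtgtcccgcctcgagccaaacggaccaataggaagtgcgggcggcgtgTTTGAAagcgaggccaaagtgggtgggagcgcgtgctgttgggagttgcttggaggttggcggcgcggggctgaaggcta
OIP5: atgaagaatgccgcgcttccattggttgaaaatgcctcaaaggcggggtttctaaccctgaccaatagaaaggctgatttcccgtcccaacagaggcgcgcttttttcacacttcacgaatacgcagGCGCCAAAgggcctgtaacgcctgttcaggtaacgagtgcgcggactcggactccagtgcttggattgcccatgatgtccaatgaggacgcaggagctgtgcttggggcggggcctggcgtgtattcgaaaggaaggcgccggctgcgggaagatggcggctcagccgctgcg
ORC6: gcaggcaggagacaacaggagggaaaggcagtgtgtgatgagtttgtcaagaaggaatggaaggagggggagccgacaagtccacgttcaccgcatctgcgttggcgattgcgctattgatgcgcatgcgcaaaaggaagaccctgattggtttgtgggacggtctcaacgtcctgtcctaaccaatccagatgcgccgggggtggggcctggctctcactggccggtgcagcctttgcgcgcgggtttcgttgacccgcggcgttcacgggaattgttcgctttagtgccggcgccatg
TRIP13: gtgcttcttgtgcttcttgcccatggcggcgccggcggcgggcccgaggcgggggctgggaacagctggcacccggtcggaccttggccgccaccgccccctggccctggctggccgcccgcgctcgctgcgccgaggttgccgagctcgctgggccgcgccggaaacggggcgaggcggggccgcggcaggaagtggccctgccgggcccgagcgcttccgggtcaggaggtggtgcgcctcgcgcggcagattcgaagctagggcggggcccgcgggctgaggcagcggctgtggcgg
CKS1B holds a CHR word 30 bases before its start, and OIP5 holds an E2F word on the opposite strand, 123 bases before its start. ORC6 and TRIP13 hold neither word in this window.

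Windows were matched for 7120 tested genes, of which 5.52% hold an E2F word and 10.1% the CHR word. Among the genes called higher with shp130, 3 of 50 with a window (6%) hold an E2F word and 5 (10%) the CHR word. Among those called lower, 3 of 59 (5.08%) hold an E2F word and 10 (16.9%) the CHR word. Both shares of E2F words lay near that of all genes. For scale, 16 of 39 windows of the replication list (41%) hold an E2F word, and 31 of 42 windows of the mitosis list (73.8%) hold the CHR word.

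Few genes that mark senescence were called. None of the 6 tested CDK inhibitor genes was called, by limma or at an unadjusted p below 0.05, and their median change was −0.20. CDKN1A, which encodes p21, had 11.57 and 11.70 in shp130 cells, against 12.05 and 12.04 in vector cells, a difference of −0.41 (SE 0.24). CDKN2A, which encodes p16, had 9.36 and 9.37 in shp130 cells, against 9.22 and 9.12 in vector cells, a difference of 0.20 (SE 0.23). CDKN2B differed by −0.49 (SE 0.70), CDKN1B by −0.80 (SE 0.43), CDKN1C by 0.31 (SE 0.32) and CDKN3, which was below the floor, by 0.00. LMNB1, the nuclear lamin that is lost in senescence, had 3.61 and 4.67 in shp130 cells, against 4.18 and 4.33 in vector cells. None of the 13 tested members of the senescence chromatin list was called, 2 were lower at an unadjusted p below 0.05, and the median was −0.06.

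Of 23 tested secreted inflammatory factors, CCL2 was called lower and none higher, and the median change was −0.12. The shares over all genes were 0.893% lower and 0.775% higher. IL6 had 10.75 and 10.72 in shp130 cells, against 11.96 and 11.06 in vector cells, a difference of −0.78 (SE 0.83, adjusted p = 0.845). CXCL8 had 12.76 and 12.77 in shp130 cells, against 12.82 and 12.71 in vector cells. IL1A and IL1B differed by 0.19 and 0.11, with errors of 0.97 and 0.78. At these errors a change of 2-fold in IL6, IL1A or IL1B could not be told from none. Of 30 tested secreted proteases and growth factor regulators, 2 were called higher and none lower, beside the same shares over all genes. Their median was 0.05. MMP14, a membrane-bound metalloproteinase, rose by 1.19 (SE 0.30, adjusted p = 0.0459), lost its call without vector replicate 1 (0.504) or shp130 replicate 2 (0.507), and its other tested probe sets differed by 0.05 and −0.55. ESM1, the secreted proteoglycan endocan, had 9.19 and 8.96 in shp130 cells, against 8.14 and 7.66 in vector cells, a change of 1.18 (SE 0.24, adjusted p = 0.0119). It kept its call without vector replicate 1 (0.0212) and lost it without the others (0.0583 to 0.194). MMP1 and MMP3, collagenase and stromelysin, were near the top of the scale in both groups and differed by 0.05 (SE 0.39) and 0.24 (SE 0.64).

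Of 21 tested genes of the TGF-beta, BMP and ID list, 2 fell and none rose, with a median of −0.17. Over all genes, 0.893% were called lower and 0.775% higher. TGFB2, a TGF-beta ligand, had 5.26 and 5.25 in shp130 cells, against 6.48 and 6.66 in vector cells, a change of −1.32 (SE 0.31, adjusted p = 0.0286), and lost its call without any 1 array (0.102 to 0.202). FST, the activin antagonist follistatin, had 9.16 and 8.32 in shp130 cells, against 10.12 and 10.03 in vector cells, a change of −1.33 (SE 0.33, adjusted p = 0.043), and kept its call without shp130 replicate 1 (0.0361) but not without the others (0.176 to 0.457). For both genes the groups did not overlap. A second tested TGFB2 probe set, below the floor, differed by −0.20 and was not called, and neither was the mean over its probe sets. The other tested FST probe sets differed by −1.14 and −1.34. None of the 40 tested matrix genes was called by limma, and the median was −0.14. At an unadjusted p below 0.05, 6 were lower and 0 higher, against 1016 of 8511 genes in either direction. COL1A1, the main fibrillar collagen, had 11.62 and 11.76 in shp130 cells, against 11.61 and 11.84 in vector cells.

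No member was called by limma on the lists of MuvB, MYBL2 and FOXM1 (5 tested), homologous recombination (7), RAS and ERK response (22), serum immediate early response (20), contractile genes (19), cholesterol synthesis (19), interferon response (13), lysosome (29), p53 targets (25), metallothioneins (6), unfolded protein response (22) and glycolysis (24). Their medians lay between −0.31 and 0.15. At an unadjusted p below 0.05, the cholesterol list had 3 members higher, the glycolysis list 2 higher, the p53 list 1 higher and 2 lower, and the lysosome list 1 higher and 2 lower. The MuvB and homologous recombination lists had 1 higher each, the RAS list 1 higher and 1 lower, the immediate early list 1 higher and 2 lower, and the interferon, contractile, metallothionein and unfolded protein lists none. TRIM22, an interferon-induced gene that is not on the list and is named after its values were seen, had 7.58 and 8.48 in shp130 cells, against 9.19 and 9.30 in vector cells, a change of −1.22 (SE 0.23, adjusted p = 0.00764). It lost its call without vector replicate 2 (0.0827) or shp130 replicate 1 (0.192).

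**Figure D3:**
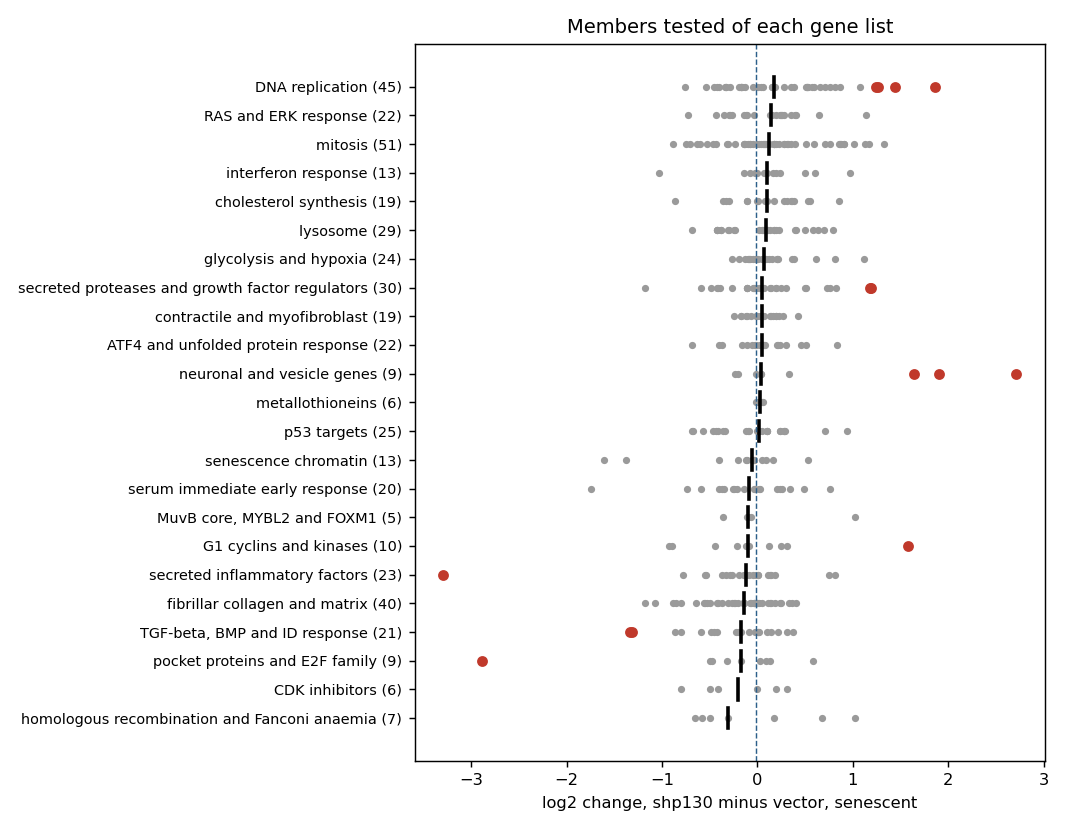
Log2 change, shp130 minus vector in senescent cells (horizontal axis), of each tested member of the gene lists (rows, with the number tested in brackets). Red points are called members, grey points are not called, black bars are list medians, and the dashed line is the median of all tested genes at −0.01. The replication list has the highest median at 0.17, and the 3 red points of the neuronal list are L1CAM, NEFM and NEFL.

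Whether the effect of shp130 in senescent cells differed from its effect in the other states was tested as the senescent change minus the mean change in growing, low-serum and confluent cells. This difference was called for 39 genes (0.458%), 25 of them positive and 14 negative. RBL2 was not among them. It fell by 2.35 in growing, 2.65 in low-serum, 2.85 in confluent and 2.88 in senescent cells, and the difference was −0.27 (SE 0.31, adjusted p = 0.886). CES1 changed by −0.03 in growing, −0.09 in low-serum and −0.01 in confluent cells, where all 12 arrays lay between 3.28 and 3.68, and the difference was 3.86 (SE 0.28, adjusted p = 3.95e-08). NEFL, CRCT1 and PAEP were likewise under the floor in all of these 3 states with either construct, and their changes there lay between −0.30 and 0.18. Their differences were 2.76 (SE 0.26), 3.15 (SE 0.34) and 2.76 (SE 0.45), with adjusted p of 2.41e-06, 2.73e-05 and 0.00449. TMEM154 also was under the floor in these states, and its difference of 2.63 (adjusted p = 0.00567) lost its call without vector senescent replicate 2 (0.0531). For such genes a change in the other states could only have been seen as a rise.

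GBP1, RECK and CCL2 were, in contrast, well above the floor in the other states. GBP1 changed by −0.33 in growing, −0.80 in low-serum and −0.56 in confluent cells, none called, and the difference was −2.00 (SE 0.29, adjusted p = 0.00161). RECK changed by −0.39, −0.85 and −0.29 in these states, and the difference was −2.31 (SE 0.39, adjusted p = 0.00567), which lost its call without shp130 senescent replicate 2 or vector senescent replicate 2 (highest adjusted p 0.0754). CCL2 changed by 0.19, 0.45 and 0.24 in these states, and the difference was −3.59 (SE 0.71, adjusted p = 0.0207), which lost its call without vector replicate 1 (−2.39) or shp130 replicate 2 (−3.11), with adjusted p up to 0.208. LINC00622 and CACNA2D1, a calcium channel subunit, differed by −1.75 and −1.72 (adjusted p = 0.0207 and 0.043), and their calls were lost without some senescent arrays (up to 0.198 and 0.286). The number of calls ranged from 17 without vector senescent replicate 2 to 79 without vector confluent replicate 1, and was 25 without shp130 senescent replicate 1, 22 without shp130 senescent replicate 2, 25 without shp130 low-serum replicate 1 and 24 without vector low-serum replicate 2. The 2 arrays of confluent vector cells stood further apart than those of any other group, with an SD of 0.794 for their difference across genes, against 0.353 and 0.384 for the senescent shp130 and vector pairs. None of the replication genes was called in this difference. GINS4 changed by 1.08 in growing, −0.06 in low-serum, 0.47 in confluent and 1.86 in senescent cells, and ORC6 by 1.07, 0.68, 0.84 and 1.44 in the same order.

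**Figure D4:**
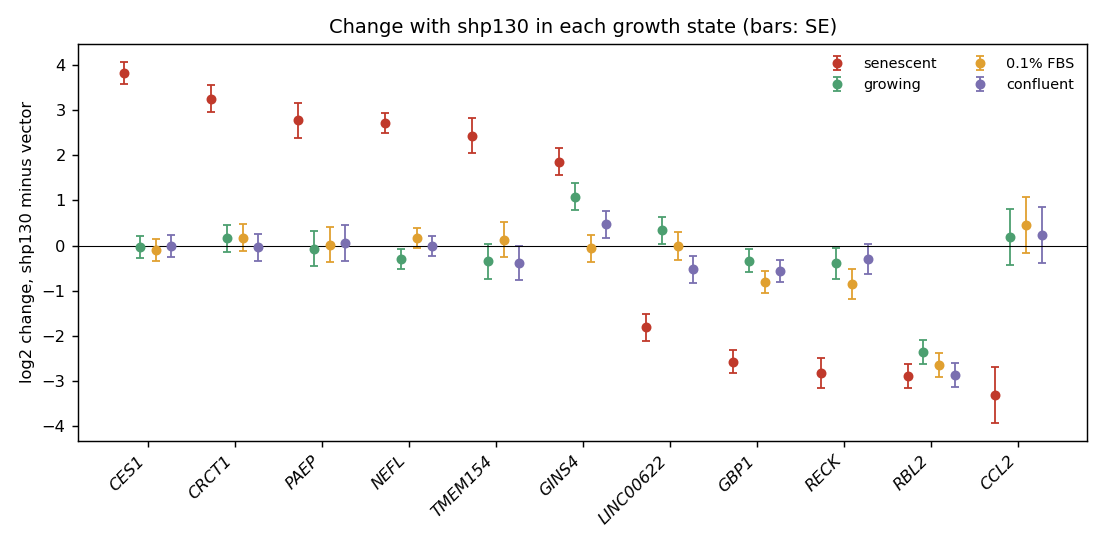
Log2 change, shp130 minus vector (vertical axis, bars are SE), in senescent, growing, 0.1% FBS and confluent cells for 11 genes. RBL2 is lower in all 4 states by 2.35 to 2.88, whereas CES1, CRCT1, PAEP, NEFL and TMEM154 are higher in the senescent cells and lie within 0.4 of 0 elsewhere.

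The hairpins were also set against each other within senescence, and these comparisons reuse the shp130 arrays. Between shp130 and shRB, 1070 genes were called (12.6%), 400 of them higher and 670 lower with shp130. The count was 534 without shp130 replicate 1, 555 without shp130 replicate 2 and 537 without shRB replicate 1. RB1 had 9.08 and 9.04 in shp130 cells, against 4.49 and 3.64 in shRB cells. Replication genes were mostly lower with shp130 than with shRB, since 23 of the 45 were called lower and 3 higher, against 7.87% and 4.7% of all genes, with a median of −1.19. CCNE2, the G1/S cyclin E2, had 3.15 and 2.90 in shp130 cells, against 9.55 and 8.56 in shRB cells, a difference of −6.03 (adjusted p = 3.28e-09). TYMS had 7.20 and 7.94 in shp130 cells, against 11.47 and 11.25 in shRB cells. GINS4 was an exception, with 5.88 and 5.31 in shp130 cells, against 3.76 and 3.74 in shRB cells, a difference of 1.85 (adjusted p = 0.000232). MCM4 was lower with shp130 than with shRB, with a difference of −1.70, and ORC6 was higher, by 1.87.

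SERPINB4, a protease inhibitor, TMEM106C, PSIP1, a chromatin-bound coactivator, and CXCL10, an interferon-induced chemokine, were lower with shp130 than with shRB by 5.94, 4.90, 4.83 and 5.10. CXCL10 lost this call without shp130 replicate 2 (0.0561) or shRB replicate 1 (0.0518). The interferon list had 6 of 13 members lower with shp130 than with shRB and none higher, against 7.87% of all genes called lower and 4.7% higher. In the other direction, CES1 had 8.38 and 8.62 in shp130 cells, against 3.90 and 3.59 in shRB cells, a difference of 4.76 (SE 0.24, adjusted p = 4.28e-11). NEFL differed by 4.23, CRCT1 by 4.06 and LCE3D by 4.59, all called higher with shp130. RECK had 5.30 and 4.68 in shp130 cells, against 5.73 and 4.42 in shRB cells, a difference of −0.08 (SE 0.34) that was not called.

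Between shp130 and shp107, 1442 genes were called (16.9%), 689 higher and 753 lower with shp130, around a median of −0.13 over all genes. The shp107 arrays stood apart from each other, with an SD of 0.659 for their difference, and the count was 335 without shp107 replicate 2, 572 without shp130 replicate 1 and 705 without shp130 replicate 2. With quantile normalization 58.6% of the calls were higher with shp130, against 47.8% as reported. CRCT1 had 7.88 and 6.28 in shp130 cells, against 3.07 and 2.65 in shp107 cells, a difference of 4.22 (SE 0.30, adjusted p = 3.07e-08). CKS2, a partner of cyclin-dependent kinases, had 11.35 and 11.38 in shp130 cells, against 8.69 and 8.29 in shp107 cells, a difference of 2.88. CES1 had 8.38 and 8.62 in shp130 cells, against 6.50 and 5.66 in shp107 cells, a difference of 2.42 (adjusted p = 2.46e-06). LCE3D, LCE2B and LSM5, an RNA-binding Sm-like protein, were higher with shp130 by 4.79, 3.20 and 3.24. GJB2, a gap junction protein, RBL2, ITGB8, RECK and CBX5, the heterochromatin protein HP1 alpha, were lower with shp130 by 3.76, 3.21, 3.01, 2.75 and 2.71, and CBX5 lost its call without shp130 replicate 2 (0.0815) or shp107 replicate 2 (0.0753).

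Some genes that were higher with shp130 than with vector were also high with the other hairpins, and these comparisons share the vector arrays. They were picked after their values were seen. ACP3 had 8.07 and 7.73 in shp130 cells, against 8.45 and 8.06 in shRB cells, 9.37 and 8.28 in shp107 cells and 6.16 and 6.22 in vector cells. CYP26B1 had 8.07 and 7.56 in shp130 cells, against 8.88 and 8.07 in shRB cells, 9.22 and 8.06 in shp107 cells and 6.25 and 4.79 in vector cells. For both genes all arrays with a hairpin lay above both vector arrays. ACP3 differed between shp130 and shRB by −0.36 (SE 0.27, not called) and between shp130 and shp107 by −0.93 (SE 0.27, adjusted p = 0.0208), and CYP26B1 by −0.66 and −0.82 (SE 0.41 each, not called). SMOC1 differed by 0.12 and 0.05 in these comparisons (SE 0.53 each, not called). HINT3 rose by 3.65 with shp107 against vector (limma adjusted p = 0.00197). Between shp130 and shp107 HINT3 differed by −0.33 (SE 0.69, not called), but it was higher with shp130 than with shRB by 2.64. CES1 and NEFL also rose with shp107 against vector, by 1.40 and 1.43, which was less than with shp130. With shRB against vector these 2 genes fell, by 0.94 and 1.51. ESM1 was lower with shp130 than with shRB by 2.42 (adjusted p = 5.42e-07) and than with shp107 by 0.83 (adjusted p = 0.0235).

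**Figure D5:**
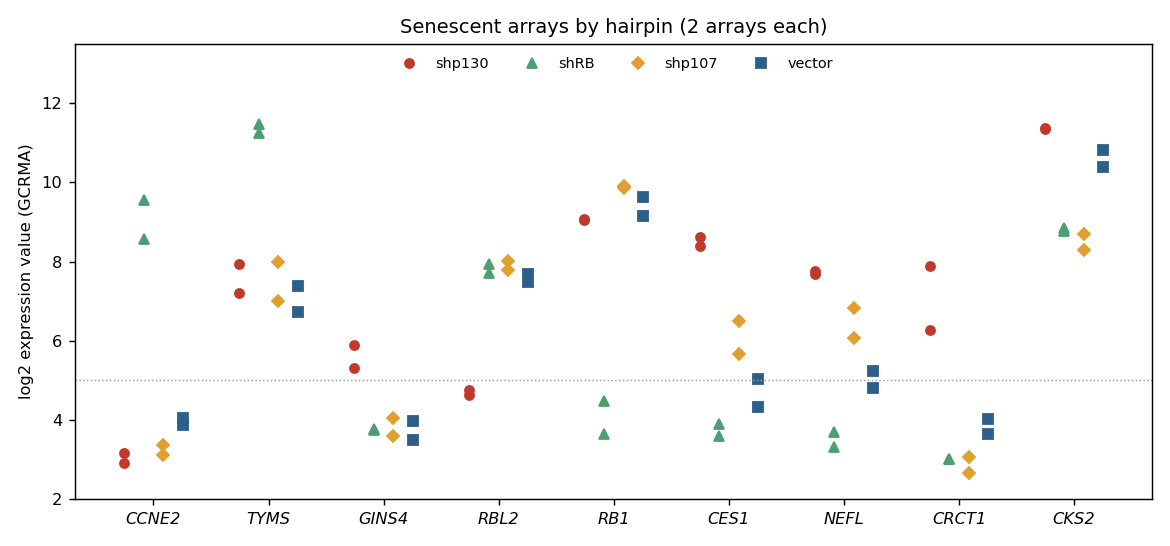
Log2 expression value (vertical axis) on the 8 senescent arrays of experiment 1 for 9 genes, with shp130 (circles), shRB (triangles), shp107 (diamonds) and vector (squares) from left to right and the floor of 5 dotted. CCNE2 and TYMS are high with shRB alone, whereas GINS4, CES1, NEFL and CRCT1 are highest with shp130.

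Experiment 2 gives senescent and growing vector cells that share no array with the comparison above. There, 18.7% of the tested genes were called higher and 20.6% lower in senescent than in growing cells, 3339 in all, and 1822 or 1854 were called without senescent replicate 1 or 2. Of the 66 genes higher with shp130, 33 (50%) were higher and 13 (19.7%) lower in senescent than in growing cells. Of the 76 genes lower with shp130, 5 (6.58%) were higher and 46 (60.5%) lower. The 50% and the 60.5% lie above the 18.7% and 20.6% of all genes. However, genes such as CES1, CRCT1, NEFL and TMEM154 were under the floor in growing vector and shp130 cells of experiment 1. Such genes could hardly be called lower in senescent than in growing cells, so these shares are no test. CES1, CRCT1, NEFL and TMEM154 were higher in senescent than in growing cells by 3.01, 3.26, 3.97 and 4.16, and GBP1 and RECK were lower by 2.33 and 2.88. GINS4, TRIP13, CKS1B and OIP5 went the other way, lower in senescent cells by 2.17, 2.75, 2.27 and 3.11 and higher with shp130.

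The 2 experiments also differ between their senescent vector arrays. CES1 had 8.38 and 8.62 in shp130 cells, against 5.03 and 4.33 in vector cells of experiment 1 and 6.92 and 6.64 in vector cells of experiment 2. NEFL had 7.68 and 7.77 in shp130 cells, against 5.22 and 4.80 in vector cells of experiment 1 and 6.95 and 6.87 in those of experiment 2. TMEM154 had 8.37 and 8.17 in shp130 cells, against 5.90 and 5.76 in vector cells of experiment 1 and 7.36 and 7.39 in those of experiment 2. For each of these genes the vector arrays of experiment 2 fell between the 2 groups of experiment 1. CCL2 had 6.72 and 5.76 in shp130 cells, against 10.73 and 8.34 in vector cells of experiment 1 and 7.69 and 8.06 in those of experiment 2. LCE3D had 10.74 and 10.84 in shp130 cells, against 9.51 and 7.63 in vector cells of experiment 1 and 9.44 and 9.83 in those of experiment 2. Both shp130 arrays lay beyond both experiment 2 vector arrays, in the direction of the call, for 57 of the 66 higher and 73 of the 76 lower genes (86.4% and 96.1%). Over all tested genes, both shp130 arrays lay above both of these vector arrays for 23.5% and below both for 38.7%. The called genes were chosen through these same shp130 arrays, which by itself raises their shares above those of all genes. No shp130 cells were measured in experiment 2, so this sets levels across experiments and is no test.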

How the data were processed

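Biotin-labelled cRNA from 1 µg of total RNA of IMR90 cells was hybridised to Affymetrix arrays. The deposited values are log2 expression per probe set, and per the submitters' processing notes GCRMA produced them. They were used as deposited. No source used here says whether both experiments were normalized together. Values ran from 0.86 to 13.88. Of 54613 probe sets, 41091 named 1 gene, 1801 several, and 11721 were not matched here. Symbols of the platform annotation were updated to RefSeq GRCh38.p14. Of the probe sets naming a gene alone, that with the highest mean on the 38 arrays stood for it.

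Each experiment was fitted with limma 3.58.1 (R 4.3.3), with 1 mean per group, so 16 groups share the spread (16 residual degrees of freedom). P-values were adjusted by the Benjamini-Hochberg method over all 8511 genes. Comparisons have 2 arrays a group, and that number limits the precision. The script was tested on simulated data. Genes named were the 15 largest called changes each way that did not overlap, all tested pocket protein, E2F and CDK inhibitor genes, up to 4 called members of each other list, and the 5 largest each way in the differences between states and hairpins. Genes outside this rule, apart from values quoted for well-known markers, are said to be chosen after their values were seen. Markers of senescence and cell cycle quoted as uncalled were also picked that way. The members and lists were chosen with earlier results of these data known. Alternatives were other normalizations, filters, probe set rules, variance models, a replicate block, fewer arrays in the fit, and each array left out.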

Additional observations from a re-analysis of the deposited data

Results flagged for a closer look

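The change with shp130 in senescent cells differed from its mean change in growing, low-serum and confluent cells for these of the 39 genes whose difference was called (limma, adjusted p below the threshold for the difference itself). The senescent change was the higher one for CES1 by 3.86, CRCT1 by 3.15, PAEP by 2.76, NEFL by 2.76, TMEM154 by 2.63, ST3GAL6 by 2.37, CXCR4 by 2.36, CYP26B1 by 2.15, PI3 by 2.12, NEFM by 2.04, LINC00302 by 1.77, PAQR5 by 1.63, OTUB2 by 1.59, SAMHD1 by 1.59, ACP3 by 1.58, ESM1 by 1.48 and MTF2 by 0.99 on the log2 scale. It was the lower one, with differences given as senescent minus other states, for ZNF827 at −0.9997, TRIM22 at −1.24, NR1D2 at −1.52, MCTP1 at −1.57, PEG10 at −1.65, CACNA2D1 at −1.72, LINC00622 at −1.75, GBP1 at −2.00, RECK at −2.31 and CCL2 at −3.59. The smallest adjusted p was that of CES1 (3.95e-08), and of these genes CES1, CRCT1, PAEP, NEFL, NEFM, OTUB2, MCTP1 and GBP1 kept the call whichever of the 4 senescent arrays was left out. PAQR5, ACP3, SAMHD1, OTUB2, MTF2, LINC00302, NR1D2, PEG10, ZNF827, TRIM22, MCTP1 and ESM1 are given here beside the genes with the largest differences because their senescent change is called. The clock repressor NR1D2 and the imprinted gene PEG10 had 6.61 and 6.28, and 7.68 and 7.66, in senescent shp130 cells, against 7.68 and 7.78, and 8.99 and 8.99, in senescent vector cells, and were named after their values were seen.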

How the results depend on the processing

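With 142 genes called in shp130 against vector, quantile normalization gave 198, centring 130, no filter 144, a floor of 6 gave 114, the mean of all probe sets 109 and a trended robust prior 139. The spread of the 8 senescent arrays alone gave 4 calls and that of the 4 arrays alone 14. Leaving out 1 array gave 46 to 71. The share of higher calls was 46.5% as reported and moved both ways. It was 37.7% with centring, 40.4% with a floor of 6 and 41.9% with quantile normalization. With no filter it was 52.1%, and with the mean of all probe sets 59.6%. The difference between states (39 calls) gave 65 with quantile normalization, 19 with the mean of all probe sets and 17 to 79 with 1 array left out. shp130 against shRB (1070) gave 595 with 8 arrays and 534 to 860 with 1 left out. shp130 against shp107 (1442) gave 422 with 8 arrays and 335 to 2140 with 1 left out. Senescent against growing vector cells (3339) gave 1822 to 3441 with 1 left out. The causes of these shifts were not tested. The change of RBL2 lay between −2.99 and −2.78 with 1 array left out, was −1.51 with the mean of its probe sets, and was called throughout. Of 64 named called genes none changed sign, CES1 and NEFL kept their call throughout, as did RBL2, and genes that were not called did change sign, such as LMNB1 (−0.65 to 0.41 with 1 array left out). Replicate numbers did not pair the arrays by the rule that every pair exceed 0.1. The replicate differences of senescent shp130 cells correlated at r = 0.014 with those of vector, 0.086 with shRB and 0.153 with shp107, 38 of 120 pairs of groups exceeded 0.1, and in experiment 2 r was −0.064. With a replicate block the counts were 148, 45, 1101, 1472 and 3990 in the order above, and RBL2 changed by −2.88. Values near the floor of 5 carry little signal over background, so the sizes of changes that start or end below it are uncertain.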
